A study of Mus musculus with 19 samples.

Results

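Hif1a and 9 genes that the transcription factor HIF1 is known to induce were described in 19 primary p53/MCA sarcomas of mice, 11 labelled Rag2-/- and 8 labelled Rag2+/-. The genes are Hif1a, Slc2a1, Ldha, Pgk1, Car9, Bnip3, Adm, Egln3, Ndrg1 and Pdk1. They were taken by name, and each of the 10 matched 1 of 48795 Ensembl gene rows. In the mouse genome (GRCm38) they lie on chromosomes 2 (Pdk1), 4 (Slc2a1 and Car9), 7 (Ldha, Bnip3 and Adm), 12 (Hif1a and Egln3), 15 (Ndrg1) and X (Pgk1). The tumors of both groups had been started in the gastrocnemius, a calf muscle, with an adenovirus that carries Cas9 and a guide RNA against Trp53, the p53 gene, and with 300 µg of the carcinogen 3-methylcholanthrene (MCA) in sesame oil. Mice were 6 to 10 weeks old at injection and received no treatment, and tumors were taken at 70 to 150 mm3. Rag2-/- mice lack T and B lymphocytes, whereas their Rag2+/- littermates carry 1 working copy of Rag2 and have both. Each library is 1 tumor, so that every value mixes tumor cells with muscle, vessels and blood cells, and fewer cells of a type cannot be told apart from less RNA per cell. Values are log2 of the authors' upper-quartile normalized FPKM (fragments scaled for transcript length and sequencing depth) plus 0.1.

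HIF1 is a dimer of HIF1A, which is broken down when oxygen is plentiful, and ARNT, which is always present. Prolyl hydroxylases such as EGLN3 mark HIF1A for destruction by the VHL ubiquitin ligase, and EGLN3 is itself induced by HIF1, a negative feedback. Because oxygen acts on the HIF1A protein, the level of Hif1a mRNA is not a readout of HIF1 activity. The target genes turn cells toward glycolysis: SLC2A1 carries glucose into the cell, PGK1 makes ATP in glycolysis, LDHA turns pyruvate into lactate and PDK1 keeps pyruvate out of the mitochondria. CAR9 is a carbonic anhydrase on the cell surface that buffers acid, BNIP3 directs the removal of mitochondria, ADM is a secreted peptide that widens vessels, and NDRG1 is a cytoplasmic protein induced by hypoxia and other stress. Skeletal muscle, the tissue around these tumors, has a strong glycolysis of its own.

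HIF1 binds the letters ACGTG or GCGTG, and the promoters of the 10 genes were searched for both on either strand in the 250 bases before the RefSeq start (GRCm38.p6), so that CACGTG counts as ACGTG on each strand. RefSeq windows were at hand for 9 of the 10 genes, all but Ndrg1. ACGTG was present in 16.6% and GCGTG in 28.2% of 32841 windows of mouse genes, and 38.6% held either. Of the 9 genes, 7 held ACGTG, 5 held GCGTG and all 9 held at least 1 of them in at least 1 window. The shares above are per window, whereas each gene was counted over all its windows, 11 in all. The sequences of 6 genes are shown because their RNA values carry the patterns described below: Ldha, Pgk1, Bnip3 and Pdk1, which varied together, Slc2a1, which varied with Hif1a, and Car9, the gene with the lowest level. Letters of either motif are in capitals.
Ldha, chr7:46845554-46845803, plus strand: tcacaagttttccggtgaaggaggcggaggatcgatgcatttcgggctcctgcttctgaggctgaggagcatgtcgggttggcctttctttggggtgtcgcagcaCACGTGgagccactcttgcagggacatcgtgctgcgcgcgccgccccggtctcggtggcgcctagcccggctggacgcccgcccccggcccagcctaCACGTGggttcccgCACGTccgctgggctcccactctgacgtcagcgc
Pgk1, chrX:106186850-106187099, plus strand: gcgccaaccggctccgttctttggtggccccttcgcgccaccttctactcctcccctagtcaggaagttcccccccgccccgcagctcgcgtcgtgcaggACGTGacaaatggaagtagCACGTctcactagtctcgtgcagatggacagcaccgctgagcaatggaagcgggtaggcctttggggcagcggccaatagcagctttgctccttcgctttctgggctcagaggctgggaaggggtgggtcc
Bnip3, chr7:138909507-138909756, minus strand: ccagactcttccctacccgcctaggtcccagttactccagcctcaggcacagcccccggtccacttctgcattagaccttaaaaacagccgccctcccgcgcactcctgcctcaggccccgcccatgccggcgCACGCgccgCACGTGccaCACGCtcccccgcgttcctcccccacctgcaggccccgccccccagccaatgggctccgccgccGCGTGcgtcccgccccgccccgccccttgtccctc
Pdk1, chr2:71872974-71873223, plus strand: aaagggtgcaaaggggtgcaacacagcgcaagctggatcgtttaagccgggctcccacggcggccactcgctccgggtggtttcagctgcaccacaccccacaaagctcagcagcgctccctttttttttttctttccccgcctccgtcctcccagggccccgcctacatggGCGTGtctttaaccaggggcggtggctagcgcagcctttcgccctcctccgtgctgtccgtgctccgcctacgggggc
Slc2a1, chr4:119108495-119108744, plus strand: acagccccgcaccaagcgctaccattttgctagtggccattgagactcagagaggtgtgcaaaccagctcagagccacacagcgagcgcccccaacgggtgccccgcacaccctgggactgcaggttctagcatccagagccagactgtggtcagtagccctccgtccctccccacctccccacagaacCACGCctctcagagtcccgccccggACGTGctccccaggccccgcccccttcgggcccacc
Car9, chr4:43506776-43507025, plus strand: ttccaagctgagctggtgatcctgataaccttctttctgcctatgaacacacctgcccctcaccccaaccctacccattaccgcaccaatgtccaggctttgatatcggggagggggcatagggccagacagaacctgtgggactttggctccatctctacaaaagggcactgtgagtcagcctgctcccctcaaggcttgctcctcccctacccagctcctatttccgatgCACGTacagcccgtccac
The Ldha window is that of the upstream of 2 RefSeq starts and held ACGTG 5 times, counting each strand, including 2 copies of the palindrome CACGTG. The window of the other Ldha start held GCGTG 1 time. Bnip3 held ACGTG 2 times, as 1 such palindrome, and GCGTG 3 times. The Pdk1 window is that of the upstream of 2 RefSeq starts and held GCGTG 1 time, and that of the other start held neither motif. Pgk1 held ACGTG 2 times, Slc2a1 held each motif 1 time and Car9 held ACGTG 1 time, 18 bases before the start. A match is a stretch of letters, and binding was not measured.

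Depth, estimated from the step between low values, was 24.8 to 33.7 M fragments on genes in 18 tumors and 5.23 M in tumor S41 (Rag2-/-). The least sequenced value of a described gene rested on about 22.7 fragments (Car9) and the least for Ldha on 4347. The mean of 6 T cell markers did not overlap between genotypes, with −2.42 to −1.19 in Rag2-/- and 0.18 to 2.67 in Rag2+/- tumors, whereas the Rag2 gene level overlapped (−2.05 to 0.36 against −2.33 to −0.57) and had the higher median in the tumors labelled Rag2-/-. Which part of Rag2 the null allele lacks is not given in the sources used here, so its level was not a check of the labels. Skeletal muscle RNA differed widely between tumors. The mean log2 value of 15 muscle markers, such as the actin Acta1 and the creatine kinase Ckm, ran from 3.41 to 12.23, and all 15 had a higher mean in Rag2+/- tumors. The list mean was 7.09 ± 1.91 (SD, n = 11) in Rag2-/- and 9.27 ± 2.36 (SD, n = 8) in Rag2+/- tumors. The 5 tumors highest in these markers, at 10.54 or above, were S51 (Rag2-/-) and S52, S56, S59 and S60 (Rag2+/-), and the next tumor was at 9.01. Mesenchymal markers were at 6.32 to 8.09 in these 5 tumors and at 8.23 to 9.08 in the other 14, and proliferation markers at 0.88 to 3.46 and 3.61 to 5.21. Results are therefore given with all 19 tumors and without these 5.

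Across all 19 tumors the 10 genes spanned a wide range of levels, which FPKM makes comparable between genes of different length. Ldha had the highest mean log2 level, 9.35, above 99.4% of the 12826 genes tested, followed by Pgk1 at 8.11. Bnip3 (5.98), Hif1a (5.58), Ndrg1 (5.02) and Slc2a1 (4.40) were intermediate, and Egln3 (3.46), Pdk1 (3.38) and Adm (3.10) were lower. Car9 was last at 0.70, above 7.52% of the genes tested. In this order the steps from Ldha to Pgk1, from Pgk1 to Bnip3 and from Adm to Car9 held in 19 of 19 tumors. The other 6 steps were smaller than the SD of the step between tumors. Bnip3 exceeded Hif1a in 10 of 19 tumors, with a mean step of 0.40 ± 1.45 (SD, n = 19), and Egln3 exceeded Pdk1 in 12 of 19, with a mean step of 0.082 ± 0.88 (SD, n = 19).

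**Figure D1:**
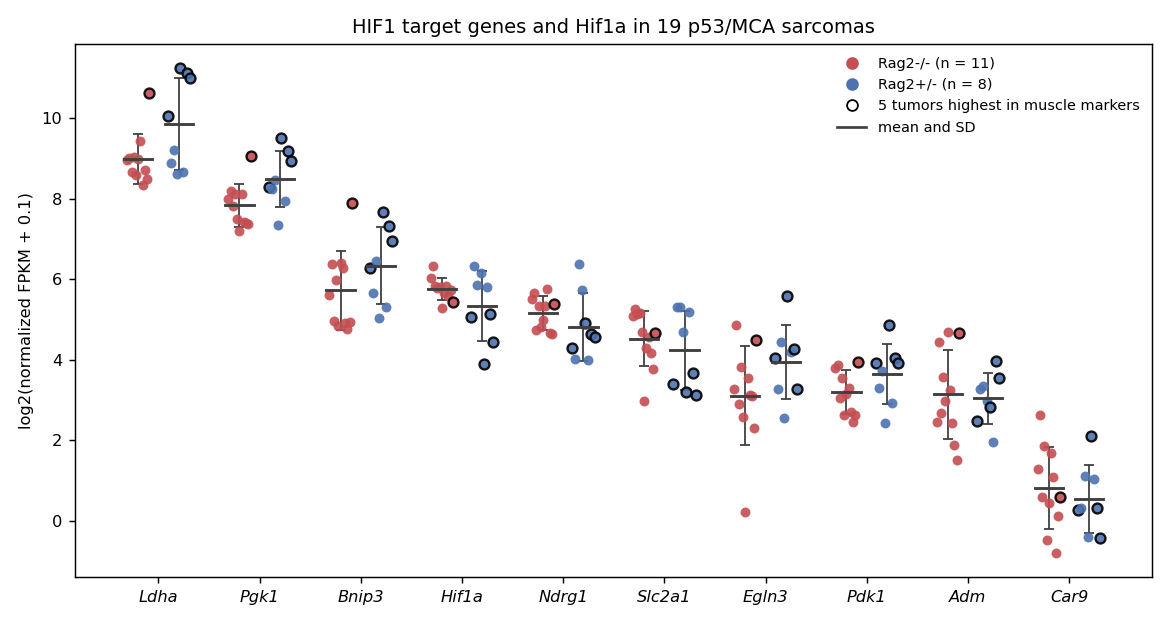
Log2 level of each gene (y axis, log2 of normalized FPKM + 0.1) in 11 Rag2-/- and 8 Rag2+/- tumors, ordered by mean level, with black rings on the 5 tumors highest in muscle markers and bars for mean and SD. The ringed tumors are the 5 highest in Ldha, all at 10.05 or above, and include the lowest Hif1a value, 3.90.

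All 10 genes varied more between tumors of 1 genotype than the median gene, whose within-genotype SD was 0.51. Egln3 had the widest spread in all 19 tumors, with an SD of 1.11 and a 41.3-fold range of normalized FPKM plus 0.1, which rests on 1 tumor. Without S46 its SD was 0.86 and its range 9.72-fold, below the SDs of Bnip3 and Car9 in the same 18 tumors (both 0.98). In all 19 tumors Bnip3 had an SD of 0.97 and Car9 one of 0.95. The lowest SDs were those of Hif1a (0.59), Pgk1 (0.61) and Ndrg1 (0.63). Single tumors set part of these too: without S56 the range of Hif1a went from 5.40-fold to 3.72-fold and its SD to 0.47, and without S54 that of Ndrg1 went from 5.22-fold to 3.37-fold and its SD to 0.49. These SDs lay between percentiles 59.3 and 87.8 of all genes tested.

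The Hif1a mRNA level (ENSMUSG00000021109) ranged from 5.30 through a median of 5.79 to 6.32 in Rag2-/- tumors and from 3.90 through 5.47 to 6.33 in Rag2+/- tumors. The highest values of the groups were nearly equal, and the lowest 2 values, those of S56 and S60, were both in Rag2+/- tumors rich in muscle markers. The mean difference, Rag2-/- minus Rag2+/-, was 0.42 (95% interval −0.13 to 0.97, limma adjusted p = 0.377). Without the 5 tumors highest in muscle markers it was −0.25 (−0.58 to 0.080), the opposite direction, and without S56 alone it was 0.22.

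Among the genes of glucose uptake and glycolysis, the glucose transporter Slc2a1 (ENSMUSG00000028645) ranged from 2.99 through 4.67 to 5.26 in Rag2-/- and from 3.13 through 4.17 to 5.31 in Rag2+/- tumors. Pgk1 (ENSMUSG00000062070) ranged from 7.19 through 7.82 to 9.07 and from 7.35 through 8.38 to 9.51. Ldha (ENSMUSG00000063229) ranged from 8.34 through 8.96 to 10.62 and from 8.62 through 9.63 to 11.24. The groups overlapped for all 3 genes, and the highest Rag2-/- value of Pgk1 and of Ldha was that of S51, the Rag2-/- tumor richest in muscle markers. The difference was −0.87 for Ldha (−1.68 to −0.054), 1.82-fold lower in Rag2-/- tumors, and −0.65 for Pgk1 (−1.23 to −0.082), 1.57-fold lower. Both intervals leave out 0, but neither passed the adjustment over all genes (limma adjusted p = 0.303 and 0.301, unadjusted p = 0.0378 and 0.0270). Slc2a1 had a difference of 0.29 (−0.46 to 1.05), which ran from 0.13 without S60 to 0.44 without S54. Ldha and Pgk1 have near-identical pseudogene copies in the annotation, so that reads shared with them may have been split or lost.

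Pdk1 (ENSMUSG00000006494), the kinase that holds back pyruvate oxidation, ranged from 2.46 through 3.15 to 3.94 in Rag2-/- and from 2.42 through 3.83 to 4.86 in Rag2+/- tumors, a difference of −0.45 (−1.05 to 0.14). Bnip3 (ENSMUSG00000078566) ranged from 4.78 through 5.61 to 7.89 and from 5.03 through 6.37 to 7.66, a difference of −0.61 (−1.50 to 0.27). Egln3 (ENSMUSG00000035105), the feedback hydroxylase, ranged from 0.21 through 3.12 to 4.85 and from 2.56 through 4.12 to 5.58, a difference of −0.85 (−1.86 to 0.17). The 3 genes resembled Ldha and Pgk1 in the sign of the difference, with wide overlap of the groups. The Egln3 value of 0.21 in S46 (Rag2-/-) stood apart, and without S46 the Egln3 difference was −0.56. Without S56 that of Pdk1 was −0.28.

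The other 3 genes had differences above 0. Ndrg1 (ENSMUSG00000005125) ranged from 4.64 through 5.33 to 5.75 in Rag2-/- and from 4.003 through 4.59 to 6.39 in Rag2+/- tumors, a difference of 0.35 (−0.24 to 0.93). Car9 (ENSMUSG00000028463), widely used as a tissue marker of hypoxia, ranged from −0.79 through 0.60 to 2.63 and from −0.44 through 0.32 to 2.10, a difference of 0.28 (−0.61 to 1.17). Adm (ENSMUSG00000030790) ranged from 1.51 through 2.97 to 4.69 and from 1.96 through 3.12 to 3.97, a difference of 0.090 (−0.77 to 0.95). The groups overlapped for all 3 genes. The 5 lowest Ndrg1 values were all in Rag2+/- tumors, as was the highest, that of S54. Single tumors moved these small differences: Ndrg1 was at 0.23 without S58 and 0.57 without S54, and Car9 at 0.10 without S42 and 0.51 without S56. Adm turned to −0.065 without S46 and was at 0.25 without S50.

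With all 19 tumors, 0 of the 10 genes passed the threshold of an adjusted p under 0.05 (limma, Benjamini-Hochberg over 12826 genes), where 0.0312% of all genes did. At an unadjusted p under 0.05, 2 of 10 passed, Ldha and Pgk1, against 16.3% of all genes. Leaving out 1 Rag2+/- tumor rich in muscle markers, S56, S59 or S60, took both past 0.05. Their unadjusted p (limma) was then 0.0946, 0.0924 and 0.0891 for Ldha and 0.0696, 0.0624 and 0.0537 for Pgk1. Without S51, the Rag2-/- tumor rich in muscle markers, both moved the other way. Their adjusted p (limma) was then 0.0947 and 0.0941, the lowest with any 1 tumor left out. In that fit 32.4% of all genes had an unadjusted p under 0.05. Hif1a, Slc2a1, Car9, Adm and Ndrg1 had differences above 0 and Ldha, Pgk1, Bnip3, Egln3 and Pdk1 below 0. The median over the 10 genes was −0.18, beside 0.062 over all genes tested. With the muscle marker mean as a covariate, Ldha moved from −0.87 to −0.11 (−0.64 to 0.42), Pgk1 from −0.65 to −0.23 (−0.73 to 0.26), Bnip3 to 0.078 (−0.66 to 0.82) and Hif1a to 0.0027 (−0.47 to 0.47). In that fit 0 of the 10 genes passed at an unadjusted p under 0.05, where 3.79% of all genes did, and 0 passed after adjustment, where 0.0156% did. In the 14 tumors left without the 5 highest in muscle markers, 10 Rag2-/- and 4 Rag2+/-, Ldha was at −0.022 (−0.41 to 0.37), Pdk1 at 0.020 (−0.59 to 0.63) and Slc2a1 at −0.61 (−1.36 to 0.14). At an unadjusted p under 0.05, 0 of 10 genes passed there, where 4.16% of all genes did, and 0 passed after adjustment, where 0.00778% did. The intervals of Car9 and Egln3 reached past 1 log2 unit, a 2-fold difference, in each of the 3 fits, so that a difference of that size could not be told from none.

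**Figure D2:**
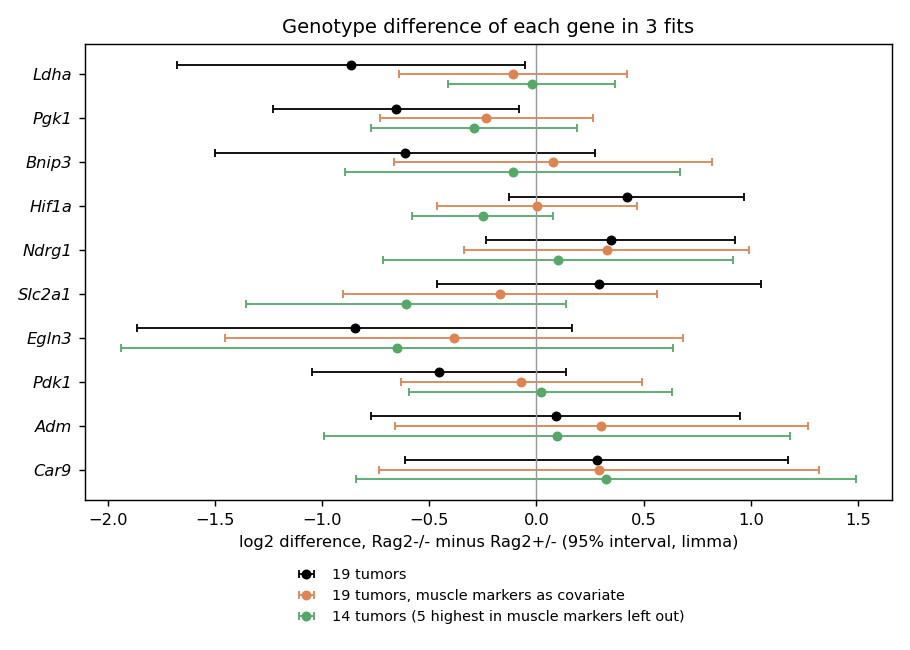
Mean log2 difference of each gene, Rag2-/- minus Rag2+/- (x axis), with its 95% interval from limma, for 19 tumors (black), 19 tumors with the muscle marker mean as covariate (orange) and the 14 tumors left without the 5 highest in muscle markers (green). The intervals of Ldha and Pgk1 leave out 0 in the first fit and span it in the other fits.

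The 10 genes split by how they followed the muscle markers from tumor to tumor. Over 19 tumors, Ldha (Pearson r = 0.87, Spearman rho = 0.73), Pgk1 (0.74 and 0.62), Bnip3 (0.72 and 0.57), Pdk1 (0.64 and 0.55) and Egln3 (0.50 and 0.50) were higher where the muscle marker mean was higher. Hif1a (−0.73 and −0.70) and Slc2a1 (−0.55 and −0.49) were lower there. These 7 of 10 relations passed an adjusted p of 0.05 in a permutation test over the 10 genes, with adjusted p of 1e-04 for Ldha to 0.0381 for Egln3 for r, and 0.0052 to 0.0485 for rho. The raw p-values ran from 1e-05, the smallest that the permutations can give, to 0.0266 for r and from 0.00052 to 0.0339 for rho. Such relations with the marker mean were common. Of 12811 genes tested other than the markers, 58.1% had an r at least as far from 0 as Egln3, the weakest of the 7. The total of 7 of 10 is near that share. By sign, 25.5% of all genes were positive and 32.6% negative, beside 5 and 2 of the 10. Adm, Car9 and Ndrg1 had r of 0.17, −0.063 and −0.16 and did not pass.

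Most of these relations rest on the 5 tumors at the top. They held the 5 highest values of Ldha and of Pdk1, 4 of the 5 highest of Pgk1 and of Bnip3, and 4 of the 5 lowest of Hif1a and of Slc2a1. Within the other 14 tumors 0 of 10 relations passed, 1 of 10 (Ldha) had an r at least that far from 0, beside 16.2% of all genes, and r was 0.52 for Ldha, 0.25 for Bnip3, 0.20 for Pgk1, 0.20 for Egln3, 0.056 for Pdk1, −0.074 for Slc2a1 and −0.098 for Hif1a. Without only S48 and S56, the 2 tumors whose marker level lay farthest from its median, r was 0.84 for Ldha, 0.66 for Pgk1, 0.64 for Bnip3, 0.48 for Pdk1, 0.42 for Egln3, −0.53 for Slc2a1 and −0.71 for Hif1a. Among these, Ldha, Pgk1, Bnip3 and Hif1a passed and the other 3 did not. For Ldha, r was 0.74 in the 11 Rag2-/- and 0.92 in the 8 Rag2+/- tumors. In the permutation test 0 of 10 relations passed in Rag2-/- tumors and 5 of 10 in Rag2+/- tumors, 3 positive and 2 negative. The share over all genes was not computed within a genotype. Hif1a and Slc2a1 had r of −0.30 and −0.072 in Rag2-/- and of −0.91 and −0.92 in Rag2+/- tumors, which include 4 of the 5 tumors rich in muscle markers. Whether the relations differ between genotypes was not tested.

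**Figure D3:**
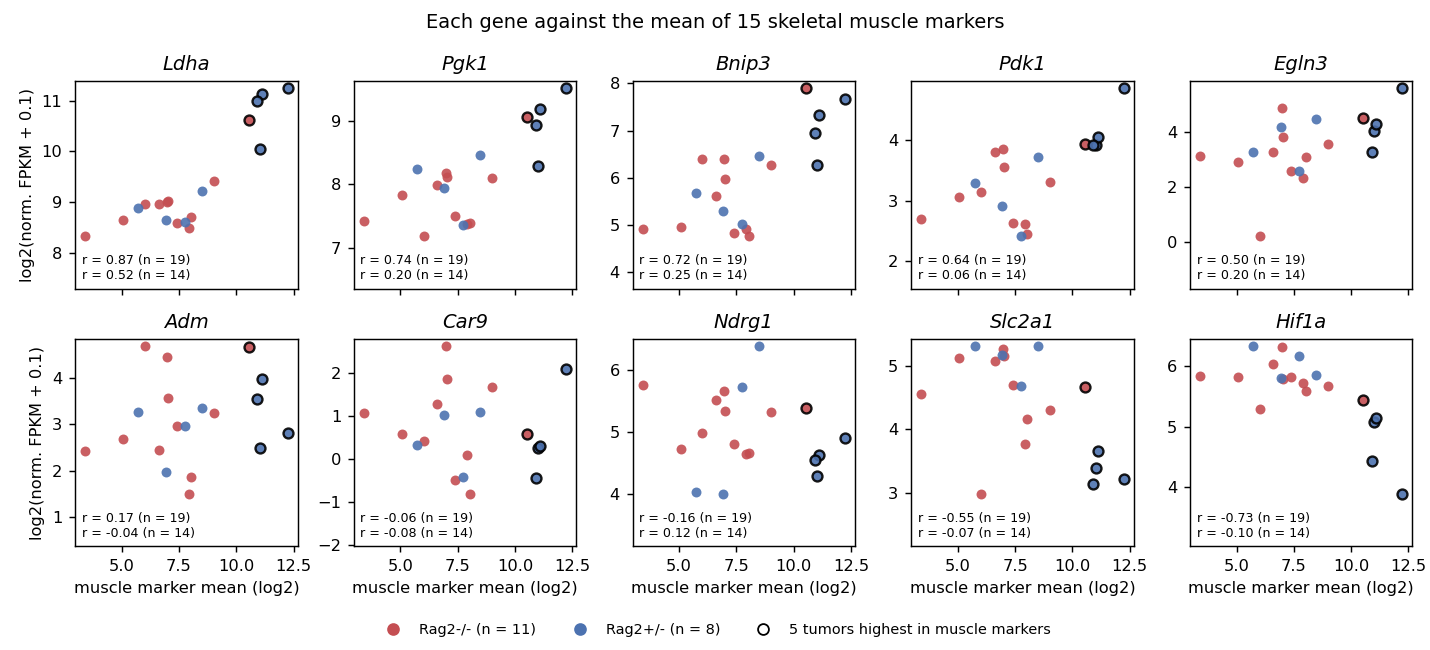
Log2 level of each gene (y axes) against the mean log2 level of 15 skeletal muscle markers (x axes) in 19 tumors, 1 point a tumor, with Pearson r for all 19 and for the 14 tumors left without the 5 ringed ones. Ldha climbs to 11.24 and Hif1a drops to 3.90 at the tumor richest in markers, while within the 14 tumors r lies between −0.098 and 0.52.

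The tumors that were high in 1 target gene were often high in others, and 4 genes varied together in all 19 tumors and, but for 1 pair by r and 2 by rank, in the 14. Over 19 tumors, 15 of the 45 pairs passed an adjusted p of 0.05 in the permutation test, 10 of them positive and 5 negative. This count is near the background, since 31.6% of all pairs of the 12826 genes, 16.0% positive and 15.6% negative, had an r at least as far from 0 as the weakest of the 15. Among the 14 tumors 13 of 45 pairs passed, all positive, beside 7.85% of all pairs, 4.14% positive and 3.71% negative, at the r of the weakest of the 13. All 6 pairs among Ldha, Pgk1, Pdk1 and Bnip3 were among the positive ones, with r of 0.90 for Ldha and Pgk1, 0.89 for Pgk1 and Pdk1, 0.89 for Ldha and Bnip3, 0.88 for Bnip3 and Pdk1, 0.87 for Pgk1 and Bnip3 and 0.82 for Ldha and Pdk1. Their adjusted p was 6.43e-05 for r, and their rho was 0.78 to 0.91 with adjusted p of 9.0e-05 to 6.5e-04 (permutation test). In the 14 tumors these 6 values of r were 0.66, 0.80, 0.87, 0.81, 0.59 and 0.74, and 5 of the 6 passed there, all but Pgk1 and Bnip3 (adjusted p = 0.0946). By rank 4 of the 6 passed in the 14 tumors, without Ldha and Pgk1 (rho = 0.62, adjusted p = 0.0559) and Pgk1 and Bnip3 (rho = 0.53, adjusted p = 0.116, permutation test). With 1 more tumor left out, r of Pgk1 and Bnip3 ran from 0.49 without S54 to 0.89 without S46. With genotype and the muscle marker mean taken out of both genes, the 6 partial correlations were 0.70 to 0.82.

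Beyond these 4 genes, Adm went with Bnip3 (r = 0.67 and rho = 0.71 in 19 tumors, r = 0.78 in 14 and 0.81 as a partial correlation). Egln3 went with Pgk1 (r = 0.76 and rho = 0.86 in 19 tumors, r = 0.78 in 14 and 0.66 as a partial correlation). Egln3 and Pdk1 had r = 0.65 in 19 tumors and 0.46 in 14, where the pair did not pass by r but did by rank (rho = 0.69, adjusted p = 0.0280, permutation test). With 1 more tumor left out, their r ran from 0.34 without S42 to 0.74 without S46. The partial correlation of Egln3 and Pdk1 was 0.50 and did not pass (adjusted p = 0.0781, permutation test). Hif1a went with Slc2a1 in 19 tumors (r = 0.81, rho = 0.84) and in 14 (r = 0.74), and the partial correlation was 0.71. Without S46, the lowest Slc2a1 tumor, r of Hif1a and Slc2a1 in the remaining 13 was 0.58. In all, 8 pairs passed in 19 tumors, in 14 tumors and as partial correlations, with the same sign. The share of all pairs of genes that meet these conditions together was not computed.

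The 5 negative pairs held Hif1a or Slc2a1 on 1 side and Ldha, Pgk1, Bnip3 or Pdk1 on the other. Hif1a had r of −0.80 with Ldha, −0.61 with Bnip3, −0.60 with Pgk1 and −0.59 with Pdk1, and Slc2a1 had r of −0.56 with Ldha, with adjusted p of 3.94e-04 to 0.0374 (permutation test). By rank the relations were weaker, with rho of −0.61, −0.46, −0.34, −0.45 and −0.33, and of these Hif1a with Ldha alone passed (adjusted p = 0.0246, permutation test). In the 14 tumors these were −0.025, 0.0081, 0.49, 0.30 and 0.12, and 0 of 45 pairs passed as negative. The partial correlations were −0.51, −0.18, −0.13, −0.23 and −0.20, and 0 pairs passed as negative. When the 2 tumors with the most extreme values of the first gene were left out, 2 pairs passed as negative, Hif1a with Ldha (−0.63) and Slc2a1 with Ldha (−0.58). The other 3 did not pass, with r of −0.43 for Hif1a with Bnip3, −0.26 with Pdk1 and −0.25 with Pgk1. Another 5 pairs passed in the 14 tumors but not in all 19. They were Slc2a1 with Egln3 (r = 0.83 in 14 and 0.23 in 19 tumors), Car9 with Pdk1 (0.81 and 0.52), Slc2a1 with Pgk1 (0.76 and −0.19), Car9 with Bnip3 (0.68 and 0.34) and Pgk1 with Car9 (0.66 and 0.31). Leaving out the 2 most extreme of the 14 tumors for the first gene gave r of 0.52, 0.71, 0.69, 0.55 and 0.74 for these 5 pairs, in the same order. Ndrg1 was in none of the pairs that passed, in 19 or in 14 tumors. Within Rag2-/- tumors it passed with Car9 (r = 0.78, adjusted p = 0.0290, permutation test), where r within Rag2+/- tumors was 0.075.

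**Figure D4:**
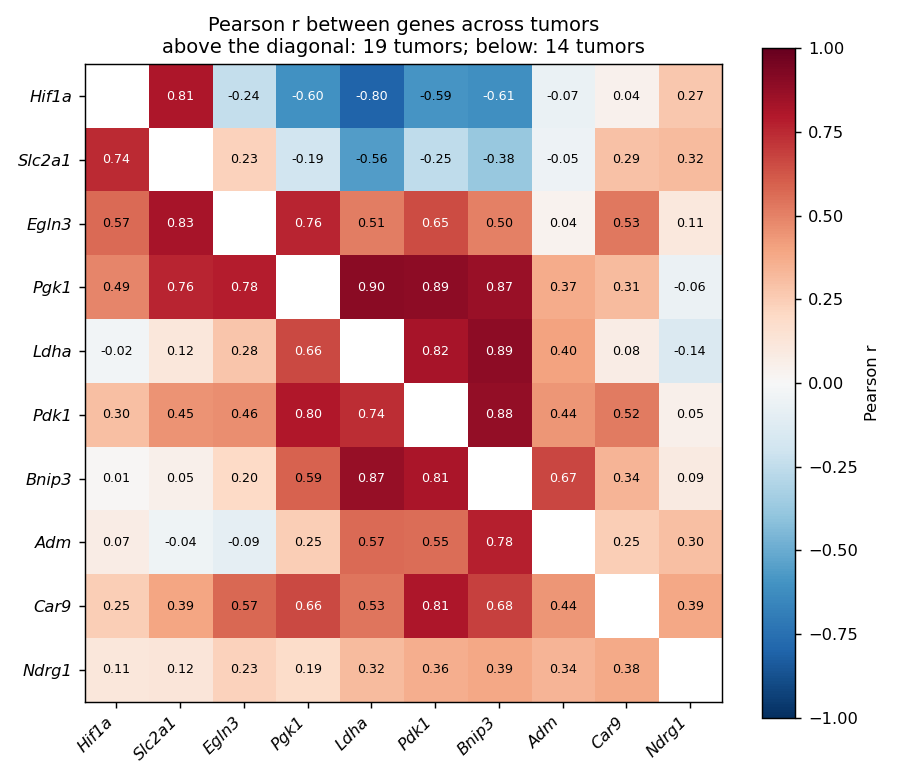
Pearson r between genes across tumors, in colour and as numbers, for all 19 tumors above the diagonal and for the 14 tumors left without the 5 highest in muscle markers below it. The block of Pgk1, Ldha, Pdk1 and Bnip3 is positive on both sides, 0.82 to 0.90 above and 0.59 to 0.87 below, while Hif1a with Ldha is −0.80 above and −0.025 below.

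Averaged over the 10 genes after each had been scaled to mean 0 and SD 1, S42 (Rag2-/-) was highest at 0.89 and S51 (Rag2-/-) next at 0.87, followed by S54 (Rag2+/-) at 0.67. S42 and S54 were above the mean in 9 of the 10 genes each, and their muscle marker means, 6.97 and 8.48, were not among the highest 5. S42 held the highest Car9 value and S54 the highest Slc2a1 and Ndrg1 values of all tumors. S50 (−0.87) and S49 (−0.84), both Rag2-/-, were lowest, each above the mean in 1 of 10 genes. S46 (Rag2-/-) did not follow the others: it had the lowest Egln3 (0.21), Slc2a1 (2.99) and Pgk1 (7.19) and the highest Adm (4.69) of the 19 tumors, with Bnip3 at 6.41. Its macrophage and endothelial marker means, 8.63 and 4.76, were the highest of all tumors. Their part in these values was not tested.

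The other genes of oxygen sensing, glycolysis and the hypoxia response were read from 5 lists of 73 genes, of which 69 were at a level that could be tested. After adjustment over all genes, 0 of the 69 passed in either direction (limma), where 0.0312% of all genes did. At an unadjusted p under 0.05, 24 of 69 passed, 23 of them with lower and 1 with a higher mean in Rag2-/- tumors, beside 16.3% of all genes tested, 9.56% lower and 6.74% higher. With single tumors left out this count ran from 4 of 69 without S56, where 7.14% of all genes passed, to 31 of 69 without S53, where 25.1% did. It was 7 of 69 without S59, 7 of 70 without S60 and 9 of 69 without S52, all Rag2+/- tumors rich in muscle markers, where 7.99%, 8.17% and 10.9% of all genes passed. Without S51, the Rag2-/- tumor rich in them, it was 30 of 69, where 32.4% of all genes did. With quality weights for each tumor 15 of 69 passed, beside 16.2% of all genes. In the 14 tumors 5 of 70 passed at an unadjusted p under 0.05, beside 4.16% of all genes. Of 8 genes of oxygen sensing, the hydroxylase Egln1 had the lowest p, with a difference of −0.89 ± 0.36 (SE), and Vhl, part of the ligase that destroys HIF1A, the lowest among those with a difference above 0, at 0.25 ± 0.14 (SE). Of 14 glycolysis genes, Gpi1 stood at −0.74 ± 0.28 (SE) and Pgam1 at 0.43 ± 0.26 (SE). Of 11 genes of pyruvate and lactate handling, the lactate exporter Slc16a3 stood at −1.17 ± 0.50 (SE) and the transporter Slc16a1 at 0.27 ± 0.17 (SE). Of 29 further hypoxia targets, the transcription factor gene Bhlhe40 stood at −0.65 ± 0.24 (SE) and the cyclin gene Ccng2 at 0.29 ± 0.13 (SE), while Vegfa, the angiogenic target best known in tumors, stood at −0.27 ± 0.18 (SE). All 7 muscle isoforms of energy metabolism were below 0, led in p by Pfkm, the muscle phosphofructokinase, at −1.82 ± 0.76 (SE).

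The lists differed in where their medians lay. The median difference was −1.96 for the muscle isoforms, −0.86 for pyruvate and lactate, −0.59 for glycolysis and −0.47 for oxygen sensing, but −0.012 for the further hypoxia targets, beside 0.062 for all genes tested. With the muscle marker mean as a covariate, the 5 medians were 0.19, −0.080, −0.077, −0.0021 and −0.0059, beside −0.017 for all genes, and 0 of the 69 genes passed at an unadjusted p under 0.05, where 3.79% of all genes did.

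**Figure D5:**
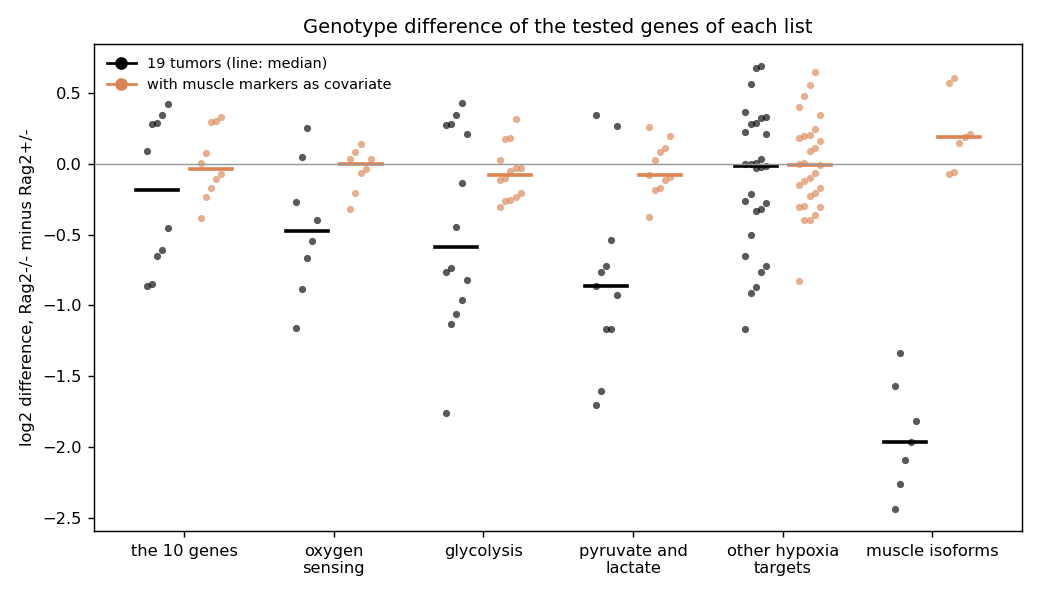
Log2 difference, Rag2-/- minus Rag2+/- (y axis), of the tested genes of each list, 1 point a gene, for 19 tumors (black) and with the muscle marker mean as covariate (orange), with lines at the medians. The median of the muscle isoforms lies at −1.96 in the first fit and at 0.19 in the second, and that of the further hypoxia targets near 0 in both.

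Among 12816 other genes tested, Fam162a, Slc16a3, Prdx6, Angptl6 and Azi2 had the pattern over 19 tumors most like the average of the 10 scaled genes, with r of 0.82, 0.81, 0.80, 0.77 and 0.77. Fam162a, itself a hypoxia target, and Slc16a3, the lactate exporter, also belong to the lists above. In the 14 tumors these 5 values of r were 0.85, 0.96, 0.77, 0.80 and 0.73. Their r with the muscle marker mean ran from 0.18 for Fam162a to 0.75 for Slc16a3. These likenesses are a description over tumors that differ in muscle RNA and, for S41, in depth. The genes were picked as the highest of all compared.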

How the data were processed

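RNA of 19 primary p53/MCA sarcomas, 11 Rag2-/- and 8 Rag2+/-, was sequenced in paired ends, 1 library per tumor. Per the paper's methods, the authors aligned reads to mouse B38 with the Omicsoft Sequence Aligner and quantified genes with Ensembl R86 models. The submitters' processing notes also list Trimmomatic 0.36, STAR and HTSeq on mm10. The deposited values are log2 of upper-quartile normalized FPKM plus 0.1, with a floor of −3.32 that holds 63% of all values. Because this unit is normalized, no count model was fitted, and whether counting used strand is not given in the sources used here. All 19 columns matched a tumor, and gene symbols were matched to 48349 of 48795 rows.

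Genes with a mean log2 value above 0 (12826, including all 10 described genes) were compared between genotypes by limma (version 3.58.1, R 4.3.3, intensity trend, Benjamini-Hochberg over all genes tested, threshold 0.05). Fold changes are on the log2(value + 0.1) scale, which understates differences of low genes. Tested on simulated data, limma recovered 92% of 100 genes changed by 2 log2 units and 98% of 100 changed by 4. The differences of the 10 genes were all smaller than 2 log2 units, and recovery at their size was not simulated. Correlations used 100000 permutations, or all 40320 orders for 8 tumors, two-sided. Partial correlations removed genotype and the muscle marker mean, with residuals permuted. Depth was estimated from the steps between low values of genes with 1 transcript, where 79.7 to 90.0% of low values came out within 0.05 of a whole fragment. Other steps ran in Python 3.11.15 with scipy 1.17.1, pandas 2.3.3 and numpy 2.4.6.

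The 10 genes, the pathway and marker lists and the tests were chosen with earlier results of these data known. Named genes are the 10, from each pathway list the gene with the lowest p in each direction (none passed the threshold), Vegfa, and the 5 genes most like the average of the 10. Removing the 5 tumors highest in muscle markers was added after seeing the data. The name of the deposited table gives 1 batch for all 19 tumors, and the labels do not say whether tumors share a litter.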

Additional observations from a re-analysis of the deposited data

How the results depend on the processing

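No paired analysis was possible because the labels give no number or litter that links tumors of different genotype. The genotype differences of the 10 genes did not pass the threshold in any fit tried: 15 tumors that the study lists, each tumor left out, pseudocounts of 1 and 0.01, no filter or a mean above 2 (which leaves out Car9), quantile normalization, equal medians, no intensity trend, quality weights, the muscle covariate and the 14 tumors. The lowest adjusted p was 0.0941 (limma), for Pgk1 without S51, and 0 of the pathway genes passed in any of these fits. S41, S46, S51 and S56 are not among the 15 tumors that the study lists. Ldha, Pgk1, Egln3 and Car9 kept their direction throughout. The direction turned for Slc2a1 with the muscle covariate (−0.17) and in the 14 tumors (−0.61), for Hif1a (−0.25) and Pdk1 (0.020) in the 14 tumors, for Bnip3 with the covariate (0.078), for Adm in the 15 tumors (−0.24) and with quality weights (−0.069), and for Ndrg1 with quality weights (−0.10). With single tumors left out, Adm ran from −0.065 to 0.25. Pgam1 turned to −0.026 with the covariate and −0.25 in the 14 tumors. Pathway genes at an unadjusted p under 0.05 (limma) numbered 24 in all tumors (16.3% of all genes), 15 with quality weights (16.2%), 0 with the covariate (3.79%), 5 in the 14 tumors (4.16%) and 4 (without S56, 7.14%) to 31 (without S53, 25.1%) with single tumors left out. Quantile normalization moved the median of all genes tested to 0.090.

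The count of negative pairs was 5 in all tumors, beside 15.6% of all pairs of genes, and 0 in the 14 tumors, beside 3.71%. It was 2 in the 15 tumors, 0 within Rag2-/-, 3 within Rag2+/-, 2 without the 2 farthest tumors and 0 as partial correlations. With single tumors left out it ran from 1 (without S56) to 5 (3 without S55). The share of all pairs of genes was not computed for these other settings. Among pairs that passed in all or in the 14 tumors, signs that turned within Rag2-/- were those of Hif1a with Pgk1 (0.11) and Pdk1 (0.26) and Slc2a1 with Ldha (0.085) and Pgk1 (0.55, partial 0.38). In the 14 tumors, among the same pairs, Hif1a with Pgk1 (0.49), Bnip3 (0.0081) and Pdk1 (0.30) and Slc2a1 with Ldha (0.12) and Pgk1 (0.76) turned. Slc2a1 with Egln3 was −0.28 within Rag2+/-, −0.15 without the 2 farthest tumors and −0.088 (without S46) to 0.46 (without S56) with single tumors left out. The genes related to muscle markers numbered 7 in all tumors, 0 within Rag2-/-, 5 within Rag2+/- and 5 in the 15 tumors. They numbered 0 in the 14 tumors, 4 without the 2 farthest and 5 to 7 with single tumors left out. The share of all genes was computed for 19 and 14 tumors only. Turned signs there were Car9 (0.19) and Ndrg1 (0.045) within Rag2+/-, and Adm (−0.041) and Ndrg1 (0.12) in the 14 tumors, and Car9 ran from −0.27 to 0.029 with single tumors left out. The cause of these changes was not tested.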
